A study of Mus musculus with 12 samples.

Results

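The early response factors of the EGR and NR4A families were described in germinal centre B cells of mouse spleen, together with Nab2, a corepressor that binds EGR proteins. The set holds 7 of the 19938 genes measured: Egr1, Egr2, Egr3, Nr4a1, Nr4a2, Nr4a3 and Nab2. Each was read from the probe set that carries its symbol alone and has the highest mean over the 12 arrays, and 5 of the 7 were bright enough to test among 11206 genes. SwHEL B cells, which carry an antigen receptor against hen egg lysozyme and the CD45.1 marker, had been transferred into C57BL/6J mice (CD45.2), which were immunised with HEL3x, a lysozyme mutant, on sheep erythrocytes. On day 10, donor-derived germinal centre B cells (CD45.1+, CD45.2-, IgG1+, CD38 low) were sorted into light zone cells (LZ), which are CD86 high and CXCR4 low, and dark zone cells (DZ), which are CXCR4 high and CD86 low, of high or low affinity. RNA was amplified and hybridised to one-colour arrays, 3 in each of the groups LZ_high, LZ_low, DZ_high and DZ_low. All groups share the donor receptor, the immunogen and the day. The labels give no gate for affinity and do not say whether replicate arrays stand for different mice, so the p-values speak to variation among these samples only, part of which may be technical.

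EGR proteins are zinc-finger transcription factors, and NR4A proteins are orphan nuclear receptors that act without a known physiological ligand. Genes of both families are induced within the first hour after an antigen receptor is engaged, EGR genes largely through ERK and the serum response factor with its Elk partners, NR4A genes largely through calcium and the factors CREB and MEF2. NAB1 and NAB2 bind EGR proteins and repress the transcription they drive, and NAB2 is itself an EGR target; NR4A proteins are known to restrain B cell responses to antigen. The light zone is where germinal centre B cells take up antigen and meet T cells, and the dark zone is where they divide and mutate.

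Promoter windows of 300 bases, from 250 before to 50 after a RefSeq start (build GRCm38.p6), were read for 5 of the 7 genes, which leaves Egr1 and Egr3 named only. Of the 5 Egr2 windows, 4 hold a CArG box, the binding element of the serum response factor, against 1.63% of the 32851 windows in the table. In 3 of them, which overlap, it is the same box at the same genomic position. It stands there with the same 2 copies of TGACG, the core of the cyclic AMP response element that CREB binds. The 4 windows therefore do not hold 4 separate boxes. Their number, set beside the share of all windows, does not measure enrichment. Each of the 3 NR4A windows holds 4 copies of TGACG and no CArG box, and at least 4 copies were found in 76 windows, 0.231% of all. The Nab2 window held none of the 6 elements searched. The window of Nab1, which encodes the other corepressor, holds 2 copies of the EGR site GCGTGGGCG, found at least 2 times in 7 windows or 0.0213%, and 1 of its variant GCGGGGGCG. The Nr4a1 window also holds 1 copy of GCGGGGGCG, which 2.91% of all windows have. Both strands were searched, TGACGTCA contains TGACG, and neither TGACGTCA nor the NR4A site AAAGGTCA was found in any window of these genes. The windows below are shown because Egr2 was the 1 gene of the set called without a block, Nr4a1 was the only NR4A gene bright enough to test and Nab1 carries both forms of the EGR site. They lie at chr10:67537680-67537979 on the plus strand, chr15:101266596-101266895 on the plus strand and chr1:52500399-52500698 on the minus strand. Capitals mark the CArG box, TGACG and the EGR sites on either strand, each sequence reading 5′ to 3′ towards its gene.
Egr2: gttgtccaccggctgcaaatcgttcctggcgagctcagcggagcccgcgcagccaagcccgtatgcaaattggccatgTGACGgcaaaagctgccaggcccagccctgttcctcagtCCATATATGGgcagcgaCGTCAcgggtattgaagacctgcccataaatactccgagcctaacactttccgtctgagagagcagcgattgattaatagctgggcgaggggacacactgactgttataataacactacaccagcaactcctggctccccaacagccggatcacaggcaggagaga
Nr4a1: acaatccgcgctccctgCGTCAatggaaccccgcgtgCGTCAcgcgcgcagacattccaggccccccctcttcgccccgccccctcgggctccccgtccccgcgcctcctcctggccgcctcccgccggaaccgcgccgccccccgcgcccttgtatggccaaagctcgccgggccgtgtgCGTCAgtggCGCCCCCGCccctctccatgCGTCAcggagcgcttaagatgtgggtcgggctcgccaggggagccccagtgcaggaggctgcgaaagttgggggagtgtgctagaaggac
Nab1: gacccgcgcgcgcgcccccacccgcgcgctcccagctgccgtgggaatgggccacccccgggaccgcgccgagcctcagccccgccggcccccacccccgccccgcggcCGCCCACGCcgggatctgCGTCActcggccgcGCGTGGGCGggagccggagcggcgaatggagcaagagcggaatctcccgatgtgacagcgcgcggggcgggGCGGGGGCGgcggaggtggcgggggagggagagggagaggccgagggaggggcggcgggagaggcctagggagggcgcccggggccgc
A match says that the letters are present and does not show that a factor binds there.

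The medians of the 12 arrays ran from 5.57 to 5.72 (log2). Each group holds 1 array of each of 3 matched sets, defined by a suffix that the sample descriptions share, and the 4 arrays of set 3 stood apart on the first principal component (40.1% of the variance; scores 12.5 to 52.9, against -26.4 to -6.7 for the other arrays). B cell markers averaged 10.6 to 11.1 and germinal centre markers 9.82 to 10.3 in all 12 arrays. The light zone sort marker Cd86 was higher in LZ by 1.13 ± 0.11 (SE; limma adjusted p = 0.00138). The dark zone sort marker Cxcr4 was lower in LZ, with a log2 difference of -0.63 ± 0.18 that passed with the matched set as a block (adjusted p = 0.0449) and not without it (adjusted p = 0.271). All samples are labelled female, whereas Xist, looked at after the values were seen, lay at 3.68 to 4.68 and at or above the array median in 0 of 12 arrays, and the Y-linked Kdm5d and Eif2s3y lay above it in 12 of 12. The Y-linked Uty lay at 4.56 to 7.17 and reached the median in 9 of 12. In Xist, Kdm5d and Eif2s3y all 12 arrays lay on the same side of their median, so that side does not separate the groups. The values still varied, from 7.55 to 8.60 for Kdm5d and from 6.98 to 8.57 for Eif2s3y.

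The set divides into genes above the array median in every array and genes that fell below it in at least 1. Egr1, Egr2, Egr3 and Nab2 were above the array median in 12 of 12 arrays. Their means over all arrays were higher than those of all 15 genes of other tissues taken as a guide to probe background. Means of these background genes ran from 4.36 to 6.88, and that of Egr3, 6.92, was just above them. The background list also held the Y-linked Uty, Kdm5d and Eif2s3y (means 6.11, 8.14 and 8.07), which are not among the 15. The DZ means of Egr1 (6.48) and Egr3 (6.81) lay within the background range. Nr4a1 was at or above the median in 9 arrays, Nr4a2 in 1 and Nr4a3 in 0, and 10, 5 and 2 of the 15 background genes had lower means than these. Probes differ in brightness for reasons other than RNA, so these counts place a probe set near or above background and do not rank the genes. A gene was tested where at least 3 of 12 arrays reached the median, which left out Nr4a2 and Nr4a3. Of the 15 background genes 7 passed this filter as well, so passing it does not show that a gene is expressed. The plot of values by group shows each array.

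**Figure D1:**
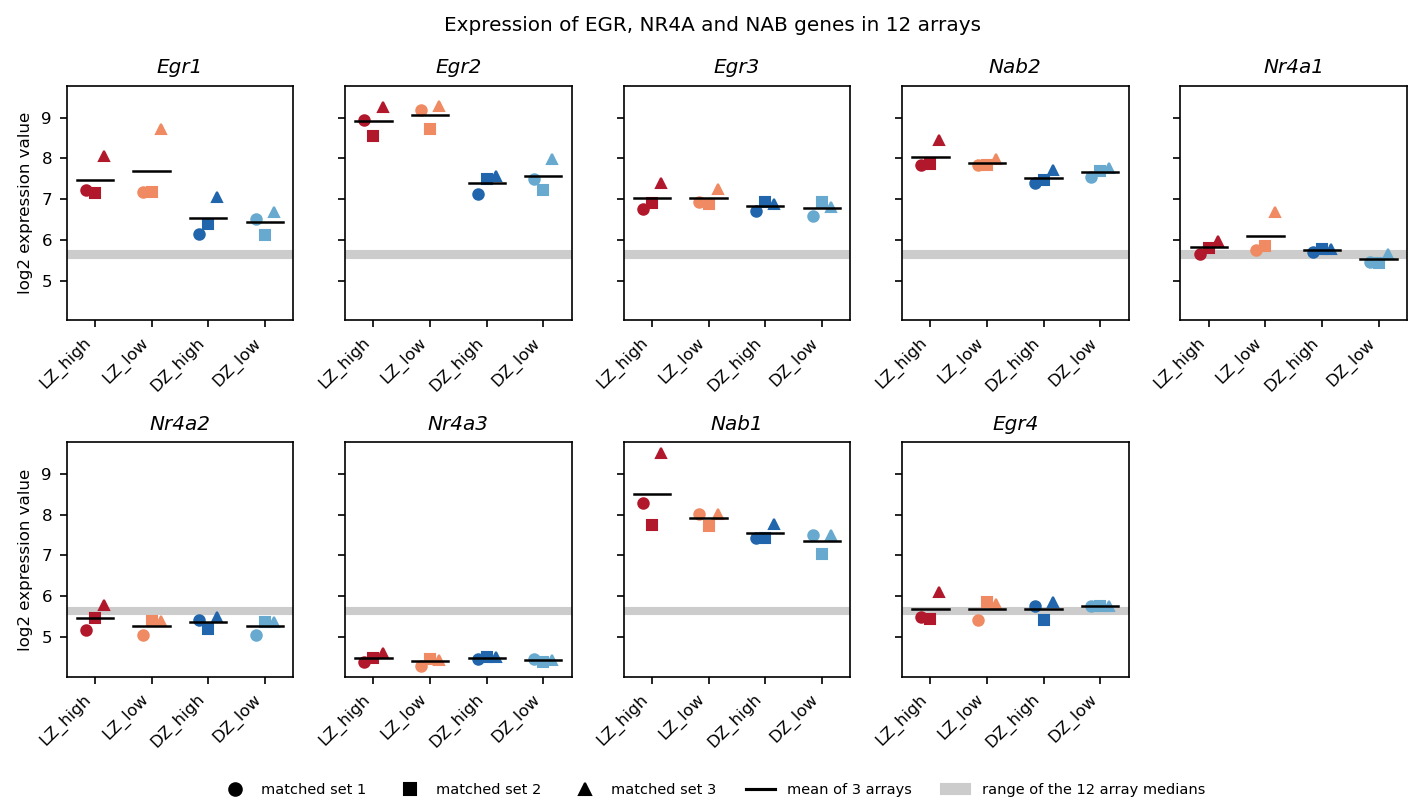
Log2 expression values (y axis) of the 7 genes, with Nab1 and Egr4 for comparison, in the 4 groups (x axis); each point is 1 array with its shape giving the matched set, lines are means of 3 arrays, and the grey band is the range of the 12 array medians. The 6 LZ arrays lie above the 6 DZ arrays for Egr1, Egr2 and Nab2, while Nr4a3 lies below the band in every array.

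Egr2 (probe set 10363735), a zinc-finger factor of the EGR family, differed most between zones. It measured 8.95, 8.56 and 9.26 in LZ_high and 9.18, 8.73 and 9.28 in LZ_low (matched sets 1, 2 and 3), against 7.13, 7.49 and 7.58 in DZ_high and 7.49, 7.23 and 7.98 in DZ_low. All 6 LZ values lay above all 6 DZ values, the lowest LZ value (8.56) being above the highest DZ value (7.98). Egr2 rose in LZ by 1.51 ± 0.18 on the log2 scale (SE; 95% interval 1.13 to 1.90), a 2.85-fold difference (limma, adjusted p = 0.00471), and was higher in LZ in 6 of 6 matched pairs. It had rank 7 of the 11206 genes both by p and by size of the rise. In bulk samples such as these, more cells that express a gene and more RNA per cell cannot be told apart. Group means, from high to low, were 9.07 ± 0.29 in LZ_low, 8.92 ± 0.35 in LZ_high, 7.57 ± 0.38 in DZ_low and 7.40 ± 0.24 in DZ_high (SD, n = 3 each). The groups of one zone overlapped, and the gap between LZ_high and DZ_low exceeded either SD.

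The rise of Egr2 was of like size at both affinities. It was 1.52 ± 0.25 at high affinity (limma, adjusted p = 0.0816, or 0.0169 with the matched set as a block) and 1.50 ± 0.25 at low affinity (adjusted p = 0.0999, or 0.0244 with the block). Within the sets, LZ exceeded DZ by 1.82, 1.07 and 1.68 at high affinity and by 1.69, 1.51 and 1.30 at low affinity. The difference between these zone effects was 0.02 (95% interval -0.75 to 0.80; limma, adjusted p = 1), which is too wide to show that they are equal.

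Egr1 (probe set 10454782), the prototype of the family and a direct target of ERK signalling, had higher values in LZ as well. It measured 7.23, 7.14 and 8.06 in LZ_high and 7.18, 7.19 and 8.73 in LZ_low, against 6.14, 6.39 and 7.06 in DZ_high and 6.50, 6.13 and 6.67 in DZ_low. The zones did not overlap, the lowest LZ value (7.14) lying just above the highest DZ value (7.06). In every group the array of set 3 was the highest. The DZ mean lay within the range of the background genes. The difference was 1.11 ± 0.30 (95% interval 0.46 to 1.75), or 2.15-fold, and higher in LZ in 6 of 6 pairs. It did not pass over all genes without the block (limma, adjusted p = 0.207) and passed with it (adjusted p = 0.0124, SE 0.16). Within sets it was 1.09, 0.75 and 0.99 at high affinity and 0.68, 1.06 and 2.06 at low affinity, so set 3 gave the largest single value. Without the LZ_low array of set 3 the difference was 0.85, and without the whole set it was 0.90 and passed (adjusted p = 0.018).

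Group means of Egr1 were 7.70 ± 0.89 in LZ_low, 7.48 ± 0.50 in LZ_high, 6.53 ± 0.48 in DZ_high and 6.44 ± 0.28 in DZ_low (SD, n = 3 each). The 2 LZ groups differed by less than their SD, as did the 2 DZ groups. The zone difference was 0.95 ± 0.42 at high affinity (limma, adjusted p = 1) and 1.27 ± 0.42 at low affinity (adjusted p = 0.713), and neither passed, with or without the block. The low-affinity value was 0.75 without LZ_low of set 3.

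Egr3 (probe set 10416251), which is induced with Egr2 downstream of the antigen receptor, did not pass. It measured 6.77, 6.90 and 7.40 in LZ_high and 6.92, 6.88 and 7.26 in LZ_low, against 6.72, 6.92 and 6.88 in DZ_high and 6.59, 6.94 and 6.82 in DZ_low. The zones overlapped, and only the 2 LZ arrays of set 3 stood above all DZ arrays. The difference was 0.21 ± 0.13 (95% interval -0.08 to 0.51; limma, adjusted p = 0.942) and positive in 4 of 6 pairs. It was 0.12 without LZ_high of set 3 and 0.079 without the whole set. At high affinity it was 0.18, and -0.0032 without LZ_high of set 3, and at low affinity it was 0.24, and 0.12 without LZ_low of set 3. Group means were 7.02 ± 0.33 in LZ_high, 7.02 ± 0.21 in LZ_low, 6.84 ± 0.11 in DZ_high and 6.78 ± 0.18 in DZ_low (SD, n = 3 each), and neighbours differed by no more than the larger SD. Egr4, the remaining family member, lay near the array medians (5.41 to 6.09 in LZ, 5.42 to 5.86 in DZ) and had a difference of -0.04 ± 0.14 (adjusted p = 0.999), whose sign changed when single arrays were left out.

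The corepressor gene Nab2 (probe set 10373313) measured 7.83, 7.86 and 8.44 in LZ_high and 7.83, 7.83 and 7.98 in LZ_low, against 7.40, 7.46 and 7.72 in DZ_high and 7.55, 7.69 and 7.75 in DZ_low. Its zones did not overlap, by a narrow margin: 7.83 was the lowest LZ value and 7.75 the highest DZ value. The difference was 0.37 ± 0.13 (95% interval 0.09 to 0.65), or 1.29-fold, and positive in 6 of 6 pairs, and it did not pass over all genes (limma, adjusted p = 0.439, or 0.155 with the block). It was 0.52 ± 0.18 at high affinity, and 0.32 without LZ_high of set 3, and 0.22 ± 0.18 at low affinity. Group means were 8.04 ± 0.35 in LZ_high, 7.88 ± 0.09 in LZ_low, 7.67 ± 0.10 in DZ_low and 7.53 ± 0.17 in DZ_high (SD, n = 3 each). The groups of one zone overlapped, and LZ_low and DZ_low, the neighbours in this order, did not.

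The other corepressor gene, Nab1, measured 8.28, 7.74 and 9.52 in LZ_high and 8.02, 7.71 and 8.03 in LZ_low, against 7.44, 7.44 and 7.77 in DZ_high and 7.51, 7.03 and 7.49 in DZ_low. The LZ_high array of set 3 stood far above the rest, and the zones overlapped slightly. The difference was 0.77 ± 0.25 (limma, adjusted p = 0.389), positive in 6 of 6 pairs, and 0.52 without that array.

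The NR4A probe sets lay near the array medians or below them, and none passed. Nr4a1 (probe set 10427035) encodes NUR77, the family member widely used as a reporter of antigen receptor signalling. It measured 5.66, 5.81 and 5.97 in LZ_high and 5.76, 5.84 and 6.68 in LZ_low, against 5.69, 5.77 and 5.78 in DZ_high and 5.47, 5.43 and 5.66 in DZ_low. The zones overlapped, and 1 array, LZ_low of set 3, stood apart at 6.68. The zone difference was 0.32 ± 0.16 (95% interval -0.03 to 0.66; limma, adjusted p = 0.781), and 0.17 without that array.

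The zone difference of Nr4a1 was 0.06 ± 0.22 at high affinity and 0.57 ± 0.22 at low affinity (limma, unadjusted p = 0.0252, adjusted p = 0.885), where it was 0.29, 0.41 and 1.02 in the 3 sets. Without LZ_low of set 3 the low-affinity value was 0.28. The difference between the zone effects, high minus low affinity, was -0.51 (95% interval -1.20 to 0.18; unadjusted p = 0.133, adjusted p = 1). Group means were 6.09 ± 0.51 in LZ_low, 5.81 ± 0.16 in LZ_high, 5.75 ± 0.05 in DZ_high and 5.52 ± 0.12 in DZ_low (SD, n = 3 each). All neighbours in this order overlapped except the 2 DZ groups, whose nearest values were 5.69 and 5.66.

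Nr4a2 (NURR1; probe set 10482772) measured 5.18, 5.47 and 5.77 in LZ_high and 5.05, 5.38 and 5.39 in LZ_low, against 5.41, 5.19 and 5.49 in DZ_high and 5.05, 5.37 and 5.37 in DZ_low. Nr4a3 (NOR1; probe set 10504838) measured 4.38, 4.48 and 4.61 in LZ_high and 4.29, 4.46 and 4.44 in LZ_low, against 4.46, 4.51 and 4.50 in DZ_high and 4.46, 4.39 and 4.44 in DZ_low. Both genes overlapped fully between zones and were too dim to test. As descriptions, their zone differences were 0.06 (95% interval -0.21 to 0.33) and -0.02 (95% interval -0.18 to 0.14). Values this close to background bound a change in RNA poorly.

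Over the set, 1 of 5 tested genes, Egr2, rose in LZ and 0 fell, where 47 of 11206 genes (0.419%) were called. With the block 2 genes were called, Egr1 and Egr2, where 135 genes (1.2%) were. All 6 LZ arrays lay above all 6 DZ arrays for 3 of the 5 (Egr1, Egr2 and Nab2), as for 60 genes or 0.535% of those tested. The median difference over the 5 was 0.37 and all 5 were positive, while over all tested genes the median was -0.00 and 49.0% were positive. The genes were chosen with earlier results of these data known, so these shares give a scale and are not a test. At high affinity 0 of the 5 were called by limma (4 genes or 0.0357% called in all; 3 of the 5 had an unadjusted p below 0.05, as did 4.53% of all genes), and with the block 1, Egr2 (9 genes, 0.0803%). At low affinity the count was likewise 0 (4 genes, 0.0357%; 3 of 5 unadjusted, against 4.69% of all genes), and with the block 1, Egr2 (25 genes, 0.223%). The plot of fitted differences gives the intervals, and the plot by matched set shows the spread behind them.

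**Figure D2:**
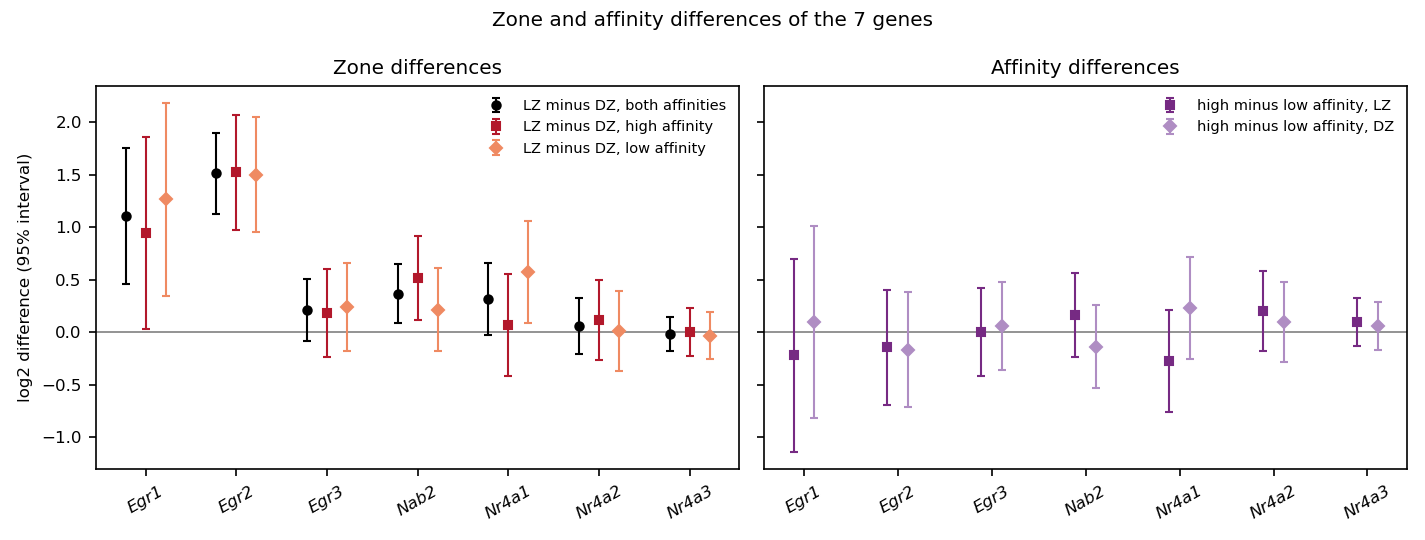
Log2 differences fitted without the block (y axis, points with 95% intervals) of the 7 genes (x axis), between zones on the left and affinities on the right. Each zone interval of Egr1 and Egr2 lies wholly above 0. So do those of Nab2 over both affinities and at high affinity, and that of Nr4a1 at low affinity. Every affinity interval includes 0.

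**Figure D3:**
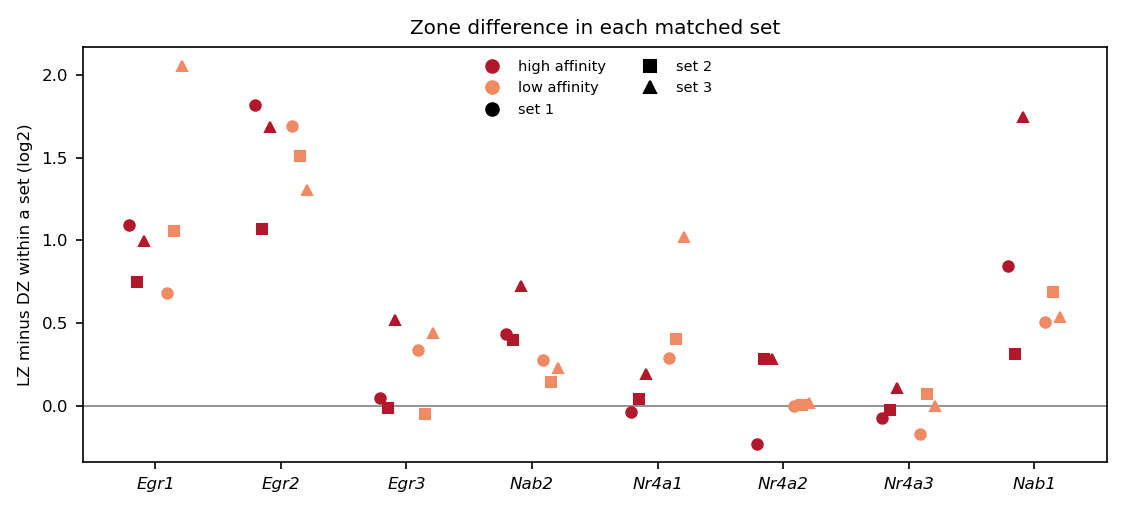
LZ minus DZ on the log2 scale (y axis) within each matched set, at high and at low affinity, for the 7 genes and Nab1 (x axis); each point is 1 pair of arrays. All 6 points lie above 0 for Egr1, Egr2, Nab2 and Nab1, and the low-affinity pair of set 3 is highest for Egr1 (2.06) and Nr4a1 (1.02).

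No difference between high and low affinity cells of one zone passed in these genes. In LZ the high minus low difference was -0.22 for Egr1 (95% interval -1.14 to 0.69), -0.15 for Egr2 (-0.69 to 0.40), 0.00 for Egr3 (-0.42 to 0.42), -0.28 for Nr4a1 (-0.77 to 0.21) and 0.16 for Nab2 (-0.24 to 0.56). In LZ the value of high-affinity cells was the lower one in 3 of 3 sets for Egr2 and for Nr4a1. In DZ the difference was 0.10 for Egr1 (-0.82 to 1.01), -0.17 for Egr2 (-0.72 to 0.38), 0.06 for Egr3 (-0.36 to 0.47), 0.23 for Nr4a1 (-0.26 to 0.72) and -0.14 for Nab2 (-0.54 to 0.26). There the value of high-affinity cells was the higher one in 3 of 3 sets for Nr4a1 and the lower one in 3 of 3 for Nab2. In LZ, in DZ, over both zones and in the interaction, limma called 0 of the 5 genes and 0 of all genes (0%), with and without the block. Without it 466 of all genes in LZ, 247 in DZ, 588 over both zones and 177 in the interaction had an unadjusted p below 0.05, and 0 of the 5 did. These intervals come from the fit without the block and are wide. For Egr1 in LZ that fit takes in a level more than 2-fold lower in high-affinity cells. Its SE there was 0.42, against 0.23 with the block. Leaving out single arrays changed the sign of each of these LZ and DZ differences except those of Nr4a1 and Nab2 in DZ.

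Markers of other cells were set beside these results. The 7 T cell markers averaged 5.01 to 5.28 in LZ_high and 5.11 to 6.33 in LZ_low, against 5.23 to 5.39 in DZ_high and 5.07 to 5.78 in DZ_low. The highest value, 6.33, belongs to LZ_low of set 3, the array in which Egr1 and Nr4a1 were highest and in which 5 of the 7 markers reached the array median. There Cd3g was 7.60, against 3.76 to 6.67 in the other 11 arrays, Cd3d was 7.32, against 4.02 to 5.00, and Cd3e was 6.15, within the 5.20 to 6.35 of the others. The macrophage gene Lyz2 was 8.24, against 3.84 to 7.09. The 10 macrophage markers averaged 5.62 in that array and 4.88 to 5.34 in the others, and their defining members Adgre1 and Csf1r did not reach the median in any array. Cd68, a lysosomal gene of the same list, had values of 6.76 to 8.15 and a zone difference of 0.65 ± 0.18 (limma, adjusted p = 0.234). The 8 granulocyte markers averaged 5.28 to 6.83 in LZ_high and 5.41 to 6.77 in LZ_low, against 5.34 to 7.01 in DZ_high and 5.44 to 6.41 in DZ_low. Over the 6 tested the median zone difference was -0.43 at high affinity and 0.54 at low affinity, with a median interaction of -1.18. In limma 0 passed in either zone comparison or in the interaction (0 unadjusted in each). With the block 1 at low affinity and 2 in the interaction had an unadjusted p below 0.05, as did 866 and 408 of 11206 genes. The 3 measured markers of naive or memory B cells averaged 7.46 to 7.71 in LZ_high and 7.80 to 8.23 in LZ_low, against 6.91 to 7.05 in DZ_high and 7.17 to 7.38 in DZ_low. Of these, Fcer2a, which encodes the IgE receptor CD23, was higher in LZ by 1.70 ± 0.13 (limma, adjusted p = 0.000353), and Ccr7 (-0.00) and Klf2 (0.27) did not pass. Among stromal markers Cr2, a complement receptor gene that B cells also express, rose by 1.02 (adjusted p = 0.0427), and among plasma cell markers Jchain, which encodes the joining chain of antibodies, fell by 0.97 (adjusted p = 0.0427). Heat shock genes averaged 9.53 to 9.72 in LZ and 9.55 to 9.76 in DZ, and 0 of 7 tested passed (0 unadjusted). The part of these cells in the results was not tested.

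The genes around the set were read from lists by role. Between zones, 791 of all 11206 genes (7.06%) had an unadjusted p below 0.05 in limma, against which the unadjusted counts below are to be read. With the block 1211 of the 11206 had. Of 15 tested upstream factors of the serum response element and of calcium signalling, 0 passed in limma (2 unadjusted, or 3 with the block). Their median zone difference was 0.06. The nearest were the ERK-activated Elk1 (0.40, adjusted p = 0.293), Nfatc2 (0.31, adjusted p = 0.593), Elk4 (0.20) and Mef2c (0.29). Of 12 tested antigen receptor and proximal kinase genes 0 passed (2 unadjusted, with or without the block), with a median of 0.05. With the block 1 passed, Pik3ap1, which encodes the adaptor BCAP (0.49, adjusted p = 0.0366, or 0.185 without the block). Prkcb, which encodes the protein kinase C of this pathway, had 0.48 (adjusted p = 0.152), Map2k1 0.23 and Syk -0.22. The high minus low difference in LZ was below 0 for all 12, with a median of -0.34, and 0 passed (2 unadjusted, or 5 with the block). Of all genes 49.7% were above 0 in this contrast, the median was -0.0021 and 4.16% had an unadjusted p below 0.05. With the block 891 of the 11206 had.

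Of 14 other immediate early genes tested, 0 passed (4 unadjusted, or 6 with the block) and the median was 0.18. Cd69, an early activation antigen, had 0.96 ± 0.23 (limma, adjusted p = 0.132), Myc 0.71 (adjusted p = 0.501), Ier2 0.58 (adjusted p = 0.613) and Atf3 -0.39 (adjusted p = 0.290). Fos, Fosb, Fosl1, Jun, Ccl3 and Ccl4 were too dim to test: Fos lay at 4.93 to 5.48 and Jun at 4.97 to 5.78. Of 10 MAP kinase feedback genes 0 passed (2 unadjusted, or 5 with the block), with a median of 0.22. The phosphatase gene Dusp10 led this list (0.58, limma adjusted p = 0.113). Dusp5, a nuclear ERK phosphatase gene, had -0.29, and Spred1 and Dusp2 each had 0.35.

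Of 7 tested genes described as Egr2 or Egr3 targets in T cells 0 passed (1 unadjusted, with or without the block), with a median of 0.08. Sema7a had 0.52 (limma, adjusted p = 0.520) and Dgka, the diacylglycerol kinase gene, -0.45 (adjusted p = 0.822). Of the retinoid X receptors, partners of NUR77 and NURR1, only Rxrb was bright enough to test, with 0.11. All genes tested had a median of -0.00.

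**Figure D4:**
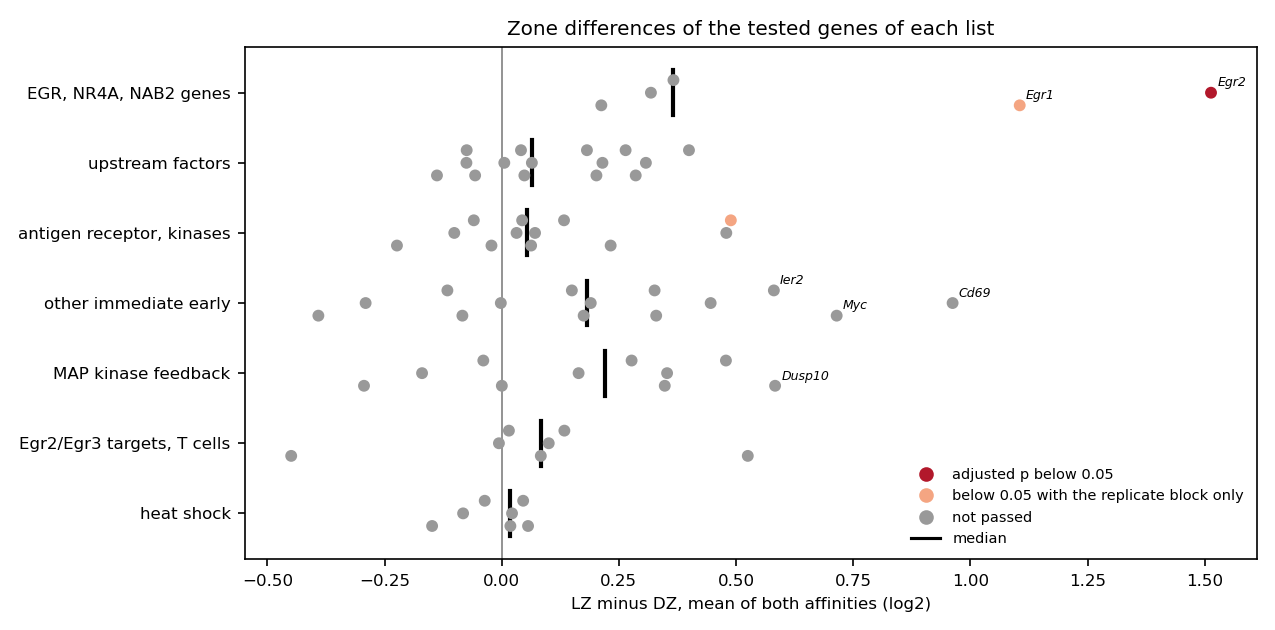
LZ minus DZ, mean of both affinities, on the log2 scale (x axis) for the tested genes of each list (y axis), with each point 1 gene, coloured by whether it passed, and bars are medians. Egr2 at 1.51 and Egr1 at 1.11 lie to the right of every gene of the 6 other lists drawn, of which Cd69 at 0.96 is nearest; cell type markers are not drawn.

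Across the 12 arrays, which share zone groups and matched sets, the genes whose values ran closest to Egr2 were Cd83 (Pearson 0.967, Spearman 0.923), Bcl2a1c (0.942 and 0.923) and Ifngr2 (0.938 and 0.937). Cd83, a light zone marker, differed between zones by 1.60 ± 0.14 (limma, adjusted p = 0.00069). Bcl2a1c belongs to a family of near-identical copies, which a probe set may not separate. Closest to Egr1 were Slfn2 (0.957 and 0.923), Rraga (0.956 and 0.942) and Lcp1 (0.952 and 0.902), and closest to Nab2 were Cyrib (0.960 and 0.959), Ier2 (0.913 and 0.847) and Orai1 (0.911 and 0.761). Closest to Egr3 was Olfr1347 (0.924 and 0.853), annotated as an olfactory receptor gene. Closest to Nr4a1 was Slc29a3, whose Pearson value of 0.923 falls to a Spearman value of 0.587. With group means removed the nearest named genes were Nol10 (0.965) for Egr2, where 1 unnamed gene was passed over, and Lamp1 (0.985) for Egr1, while Olfr1347 (0.976) and Slc29a3 (0.969) were still nearest to Egr3 and Nr4a1. These values are descriptions over the arrays.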

How the data were processed

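Per the submitters' processing notes, values were made with RMA, and mm8 is the build named; the order and settings are not given in the sources used here. The deposited values are log2 expression values per probe set; the log base was taken from their range, 1.99 to 13.74. Of 28853 probe sets, 21789 had 1 symbol, 1621 several and 5443 none; symbols were taken from GEO's platform annotation. A gene was tested where at least 3 of 12 arrays were no lower than the median probe set of the array, which left out 8732 of 19938 genes. Group means over all 12 arrays were fitted with limma 3.58.1 in R 4.3.3 (lmFit, eBayes, two-sided). A gene was called below 0.05 after Benjamini-Hochberg adjustment over all 11206. Scripts were tested on simulated data.

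The sets are the shared suffix of the sample descriptions, read as a batch or day. With group means removed, 17 of 18 same-set pairs of arrays correlated above 0.1 (lowest -0.071, median 0.41), and the best match of 11 of 12 arrays lay in their own set. This check followed knowledge of both fits, so the fit without the block is given first.

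The 7 genes and the gene lists were chosen with earlier results of these data known. Named genes are the 7, Egr4 and Nab1, the 4 list members with the smallest p and any called, the 3 nearest in correlation, and sort and zone markers. Xist was chosen after its values were seen. Alternatives were a fixed and a random block, no or a stricter filter (percentile 75), quantile normalization, median centring, trend and robust moderation, array weights, probe set means, only the groups compared and leaving out each array. Chosen after seeing the data were fits without set 3 and a blocked fit without its LZ_high array. Precision is limited by the number of arrays.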

Additional observations from a re-analysis of the deposited data

How the results depend on the processing

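Egr2 was called in the zone comparison under every alternative run, with differences of 1.32 to 1.62, and in 12 of 12 fits that left out 1 array (1.43 to 1.62; limma, adjusted p 0.006 to 0.0219). All 71 alternative zone values of Egr1, Egr2 and Nab2 were positive. Every LZ array lay above every DZ array for these genes, so leaving out or weighting arrays could not change that sign. The number of the set's genes called between zones was 1, and it was 2, with Egr1 added, with the replicate block, a random block or array weights, and in the 3 fits chosen after seeing the data (without set 3, with and without the block, and the block with the LZ_high array of set 3 left out). It was 1 when any single array was left out. At high affinity 1 gene, Egr2, was called in place of 0 with the replicate block, a random block or array weights. At low affinity it was 1, again Egr2, with these, with quantile normalization and with the block when LZ_high of set 3 was left out. The replicate block changed no other call of these genes. Of all genes, 47 were called, against 135 with the block, 110 with a random block, 327 with array weights, 80 with quantile normalization, 28 with median centring, 85 and 86 without set 3, 167 with the block and LZ_high of set 3 left out, and 12 to 67 with single arrays left out. Array weights also called Atf3, Ier3, Myc, Dusp5, Prkcb and Pik3ap1. Quantile normalization also called Dusp10, and a random block Pik3ap1. Of 24 alternatives, the number called between zones moved from 0 in 4 for antigen receptor and proximal kinase genes. It moved in 2 each for other immediate early and MAP kinase feedback genes, and in 1 for Egr2 or Egr3 targets. Nab1 was called with the block and LZ_high of set 3 left out (0.56, adjusted p = 0.0422). Egr1 had zone differences of 0.85 to 1.24 when single arrays were left out (adjusted p 0.187 to 0.406). Under the stricter filter Egr1, Egr3, Nr4a1 and Egr4 were not tested.

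Of 722 alternative values of single genes 39 changed sign, none of them called; the cause was not tested. Leaving out single arrays gave -0.14 to 0.031 for Egr4 between zones, and at high affinity -0.0032 to 0.31 for Egr3 and -0.015 to 0.14 for Nr4a1. High minus low affinity in LZ then ran from -0.51 to 0.29 for Egr1, -0.32 to 0.037 for Egr2, -0.19 to 0.13 for Egr3, -0.45 to 0.015 for Nr4a1 and -0.038 to 0.27 for Nab2. In DZ it ran from -0.17 to 0.29 for Egr1, -0.34 to 0.039 for Egr2 and -0.040 to 0.14 for Egr3. The interaction ran from -0.61 to 0.20 for Egr1 and -0.18 to 0.21 for Egr2. Without set 3, with or without the replicate block, the affinity difference was 0.00375 for Egr1 and -0.069 for Egr3 in LZ and -0.0475 for Egr1 in DZ, and the interaction was 0.051 for Egr1 and -0.16 for Egr2. Egr3 in LZ had -0.026 with median centring, -0.042 with array weights and -0.14 with the block and LZ_high of set 3 left out. Array weights gave -0.062 for Egr1 in DZ. The interaction of Egr2 was -0.072 with quantile normalization, -0.28 with array weights and -0.011 with the block and LZ_high of set 3 left out.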
